A study of Mus musculus with 18 samples.

Results

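The proximal tubule recovers most of the glucose, amino acids, phosphate, bicarbonate, sulfate and organic acids that the glomerulus filters. Carriers in the brush border take these solutes up from the urine, often together with sodium or protons. A second set of carriers in the basolateral membrane passes them to the blood. The genes described here are 40 such solute transporters and their partner proteins, chosen by name from the 19518 genes of a mouse kidney expression table, with the organic ion transporters of the Slc22 family left out. All 40 were found, Tmem27 under its other symbol Cltrn, and all 40 were among the 12031 genes that passed the filter on low values (at least 1 in 3 or more libraries). Several of them, such as Slc16a1, Slc3a2 and Slc20a2, are also made by many other cell types.

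Frozen kidneys of ICR mice, aged 10 weeks, gave 18 RNA libraries, 3 for each of 6 conditions. Those without the diet were a control group and a group that received AOS (10 mg/kg). The other 4 conditions were all on a high fat diet, abbreviated HFD: the diet by itself, the diet with AOS at the same dose (HFD+AOS), and the diet with a faecal microbiota transplant, either one whose label carries AOS at 10 mg/kg (HFD+AOS-FMT) or a control transplant (HFD+control-FMT). AOS is kept as the labels write it. The series was designed around kidney damage by the diet and the effect of transplants on it. The labels name neither the transplant donors nor the sex of the mice nor the hour of collection. Nothing in them ties each library to a mouse of its own, and p-values may therefore reflect technical spread only.

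Each gene has 1 normalized signal in a library. It was treated as scaled for depth and transcript length, since the column sums varied by 3.49% (coefficient of variation) and by 0.815% after each value was multiplied by transcript length. Read totals are not known. The steps between low values give a relative depth, which ran from 0.885 in control replicate 3 and 0.889 in control replicate 1 to 1. Each gene's step was its smallest nonzero value, so this measure stays near 1 and cannot show a large difference in depth. Control replicate 3 stood apart. Kap, an abundant proximal tubule transcript, took 2.48% of its summed signal against 17.2% to 22.9% in the other 17 libraries, 6 adrenal genes summed to 617 against at most 1.86, and 6 tubule injury genes summed to 2869 against at most 710. Germ cell transcripts (5 genes summed) stood at 25.4 to 38.4 in the 3 control libraries and in HFD replicates 1 and 2, and at no more than 0.3 in the other 13 libraries. A further listed germ cell gene, Smcp, was not in the sum and did not split this way. It stood at 30.23, 33.56 and 14.25 in control, 21.08 to 26.13 in AOS and 30.54, 32.8 and 22.14 in HFD libraries. Smcp was at 11.68, 16.26 and 15.45 in HFD+AOS, 22.94 to 26.96 in HFD+AOS-FMT and 16.55 to 21.3 in HFD+control-FMT. With Smcp, the listed germ cell genes summed to 11.68 to 16.44 in HFD+AOS and 22.14 to 58.25 in HFD, without overlap. In bulk tissue, fewer cells of a type and less RNA per cell cannot be told apart.

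The levels of the 40 genes spanned 3 orders of magnitude. Slc34a1, the main sodium phosphate cotransporter of the brush border, had the highest mean over the 18 libraries at 2697. Tmem27 (collectrin, which carries amino acid transporters to the membrane) followed at 1600 and the scaffold Pdzk1 at 615. At the other end stood the anion exchanger Slc26a6 at 4.0, the urate carrier Slc2a9 at 4.08 and the glycine and proline carrier Slc36a2 at 1.35. Together the genes took 1.21% to 1.61% of the summed signal. The lowest share in HFD+AOS (1.43%) was above the highest in HFD (1.32%), while control (1.21% to 1.37%), AOS (1.28% to 1.32%), HFD+AOS-FMT (1.34% to 1.39%) and HFD+control-FMT (1.21% to 1.32%) lay lower than HFD+AOS. Proximal tubule markers outside the set, summed without Kap over 10 genes, were present throughout, the sum running from 9026 to 13103 in the 17 libraries and standing at 5920 in control replicate 3. Of the 12 marker genes listed, Cub was not analysed here.

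**Figure D1:**
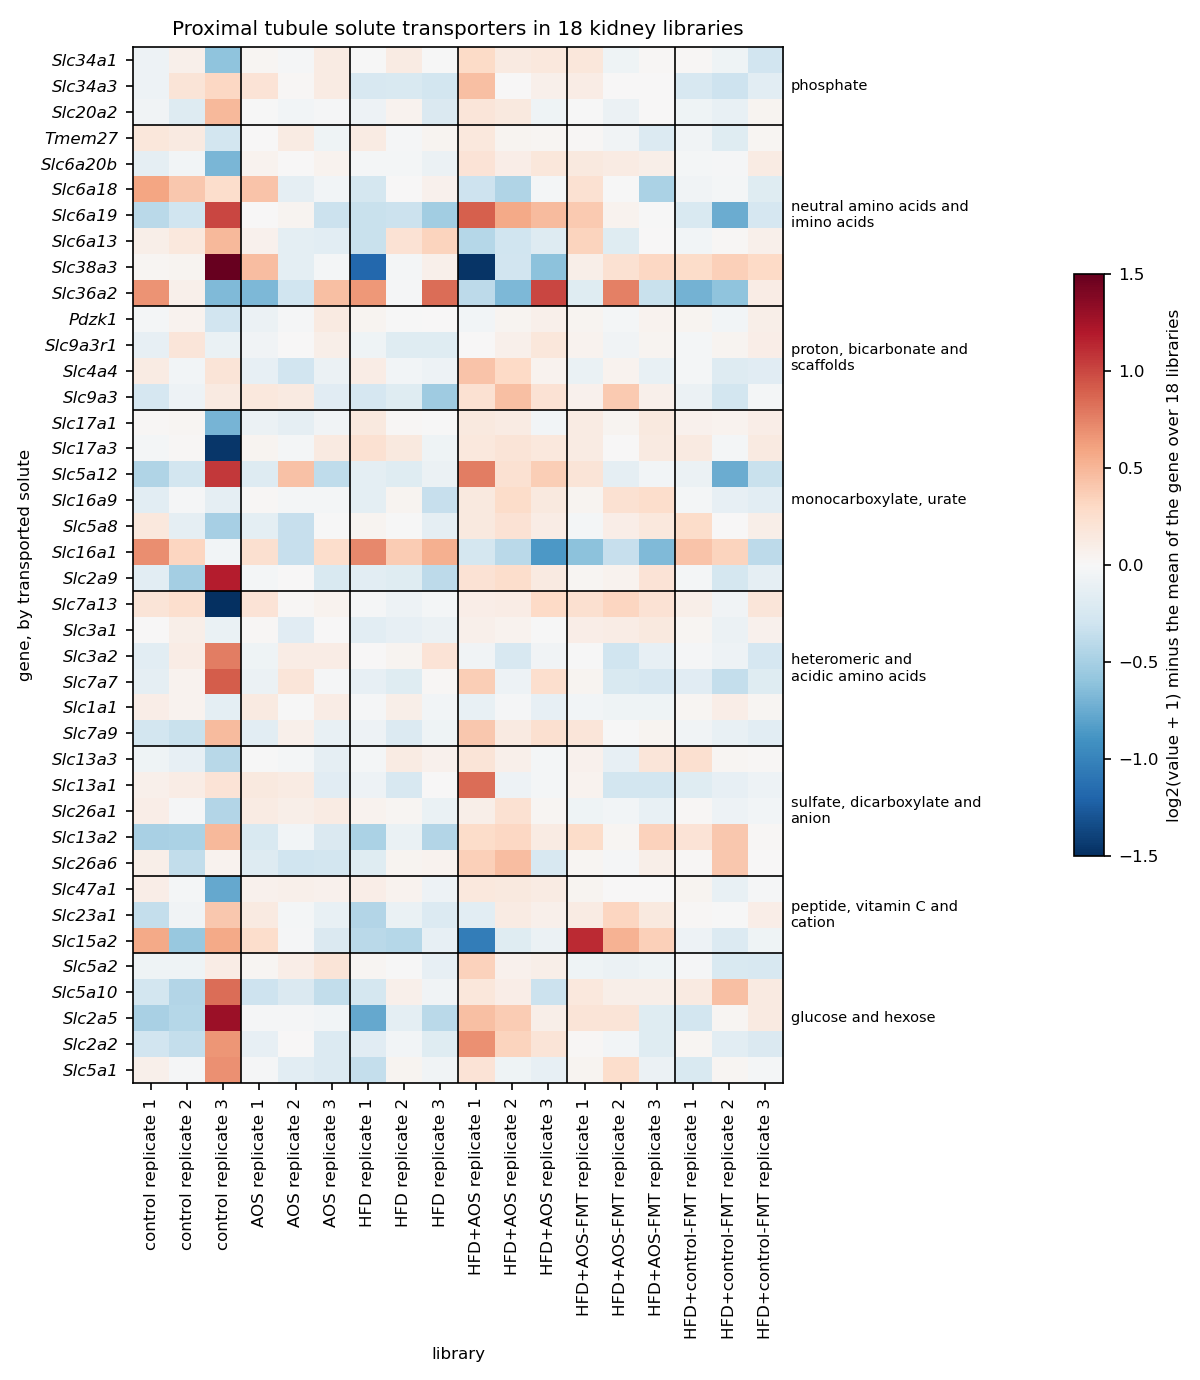
Each row is 1 of the 40 genes, grouped by transported solute, and each column is 1 of the 18 libraries; colour gives log2(value + 1) minus the mean of the gene over the 18 libraries, and colours saturate at differences of 1.5. Control replicate 3 shows the strongest colours in both directions, HFD+AOS is mostly above the mean, and Slc16a1 is below its mean in all libraries of HFD+AOS and HFD+AOS-FMT.

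The library that stood apart did so in these genes too, and in both directions. Control replicate 3 lay above all 17 other libraries in 14 of the 40 genes, below all of them in 12 and within their range in 14. Over all genes tested it lay above the others in 49.7% and below them in 9.38%. The fructose transporter Slc2a5 stood at 130.3 in it against 37.7 and 39.2 in control replicates 1 and 2, a ratio of 3.39 to their mean. Slc2a9 reached 3.47 times that mean, the glutamine transporter Slc38a3 3.06 times, the lactate transporter Slc5a12 2.68 times, the neutral amino acid transporter Slc6a19 2.59 times and the mannose and fructose transporter Slc5a10 2.30 times. Slc13a2, Slc7a7, Slc7a9, Slc3a2, Slc5a1, Slc20a2, Slc23a1 and Slc6a13 were also above the range, at 1.3 to 1.98 times. In the other direction, Slc7a13, the acidic amino acid and cystine carrier of the late tubule, stood at 99.4 against 496 and 518, a ratio of 0.196. The urate carrier Slc17a3 stood at 0.364 times the mean of the other controls, the cation extruder Slc47a1 at 0.571 times and Slc34a1 at 0.658 times. Slc17a1, Slc6a20b, Slc5a8, Slc26a1, Tmem27, Slc13a3, Pdzk1 and Slc1a1 were below the range as well. The injury and adrenal transcripts of this library are given above, and their part in these differences was not tested. Results are therefore given with and without control replicate 3.

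**Figure D2:**
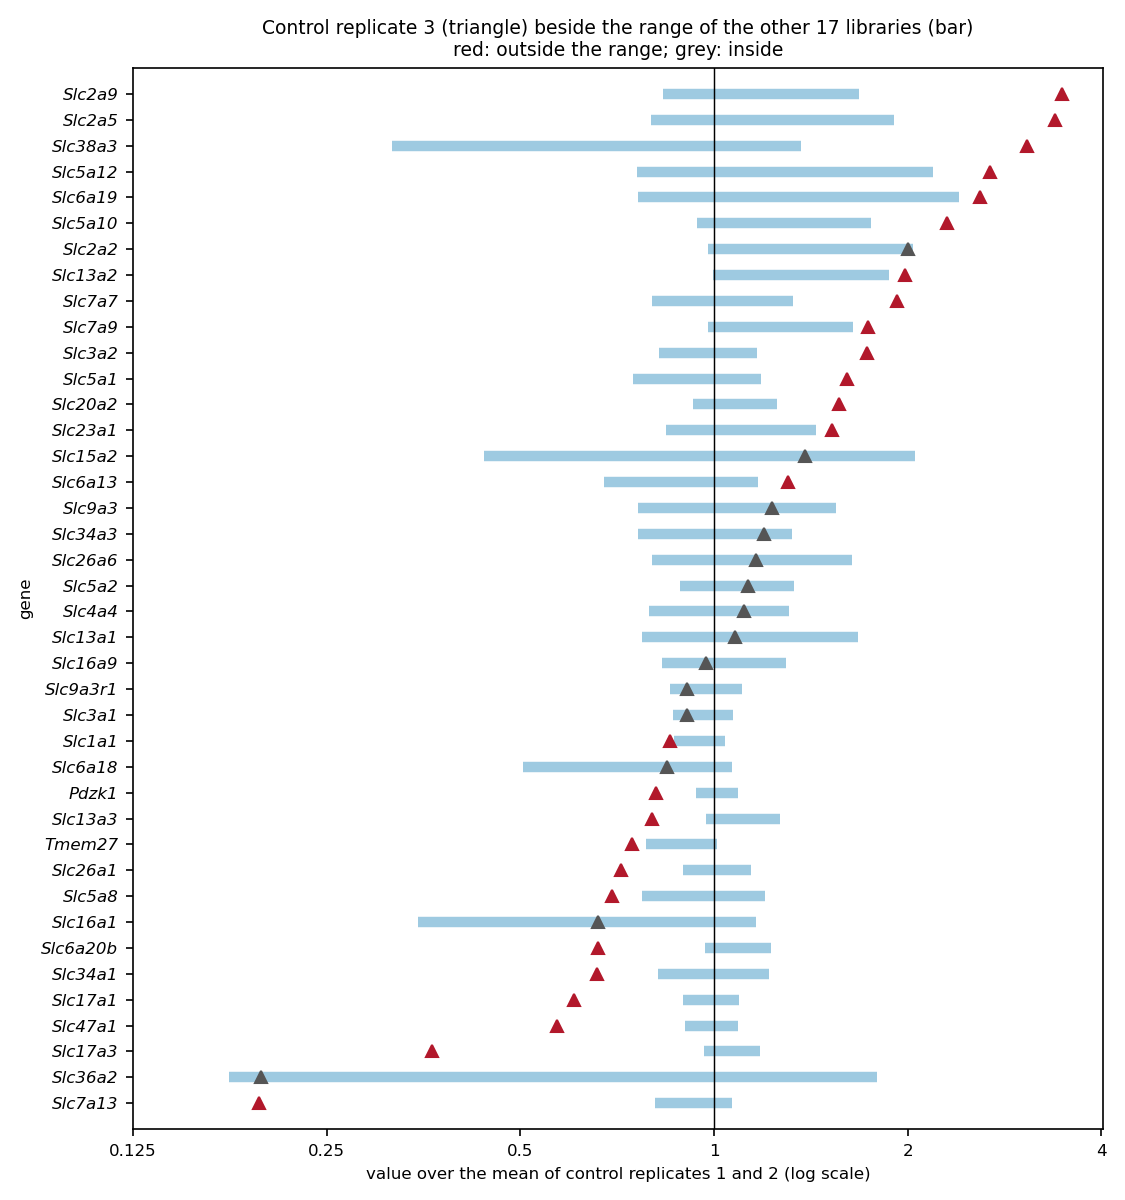
For each of the 40 genes the triangle marks control replicate 3 and the bar spans the other 17 libraries, all divided by the mean of control replicates 1 and 2, on a log axis. Red triangles lie outside the bar: 14 genes above it, led by Slc2a9 at 3.47, and 12 below it, led by Slc7a13 at 0.196.

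The comparison of HFD+AOS with HFD asks what AOS changed on the diet, and it held the 1 call among these genes with all libraries. Slc9a3, the sodium and proton exchanger of the brush border, rose 1.56-fold (ratio of means) and was the only gene of the 40 with an adjusted p under 0.05, against 0.823% of all genes tested in either direction (0.465% higher, 0.357% lower). The direction was shared more widely: 32 of the 40 genes had a positive log2 difference, with a median of 0.18 against 0.01 over all genes. In 18 genes every HFD+AOS library lay above every HFD library, and in 2 below, where the shares over all genes were 16.2% and 12%. At an unadjusted p under 0.05 there were 14 of 40 (12 higher and 2 lower), against 15.1% of all genes (8.2% and 6.86%). The counts of positive and negative differences were the same under quantile normalization and after rescaling to equal sums without Kap.

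Leaving out control replicate 3 changes no value in HFD+AOS or HFD, since that library enters this comparison only through the shared estimate of the spread. Without it 11 of the 40 genes passed, 10 higher and 1 lower, against 6.72% of all genes (4.24% and 2.48%). The 10 were Slc9a3, Slc6a19, Slc2a2, Slc2a5, Slc2a9, Slc13a2, Slc34a3, Slc7a9, Slc16a9 and Slc6a20b, and the 1 that fell was Slc16a1. The SE of the Slc6a19 difference was 0.280 with that library and 0.154 without it.

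Slc9a3 (chromosome 13, 74121457 to 74169442 on GRCm38, plus strand) takes up sodium in exchange for protons and so drives bicarbonate recovery. Its signal was 34.6, 40.4 and 34.2 in HFD+AOS and 24.5, 25.7 and 19.9 in HFD. Control libraries stood at 24.5, 27.8 and 32.2, AOS at 32.8, 32.4 and 25.9, HFD+AOS-FMT at 30.8, 38.9 and 31.0, and HFD+control-FMT at 27.6, 24.1 and 28.7. HFD+AOS was higher than HFD in every library without overlap, and HFD+AOS also lay above all control, AOS and HFD+control-FMT libraries. The log2 difference from HFD was 0.62 (SE 0.130, adjusted p = 0.0405). This call depends on most libraries: it was lost when AOS replicate 1 or 2, any HFD or HFD+AOS library, HFD+AOS-FMT replicate 1 or 3 or HFD+control-FMT replicate 1 was left out (log2 difference 0.51 to 0.69, adjusted p from 0.00921 to 0.177 over all 18 left-out libraries). A batch term for the germ cell transcripts, which leaves HFD replicate 3 as the HFD library without them, gave a difference of 0.84 with adjusted p = 0.133.

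The 250 bases before the RefSeq start of Slc9a3 and of Slc16a1 are shown because these genes had the smallest p in this comparison, with opposite signs, and both windows hold the E-box CACGTG, the element bound by the clock factors ARNTL and CLOCK. Capitals mark the E-box, and both are read from the plus strand, 5′ to 3′, in RefSeq on GRCm38.p6.
Slc9a3, chr13:74121163-74121412: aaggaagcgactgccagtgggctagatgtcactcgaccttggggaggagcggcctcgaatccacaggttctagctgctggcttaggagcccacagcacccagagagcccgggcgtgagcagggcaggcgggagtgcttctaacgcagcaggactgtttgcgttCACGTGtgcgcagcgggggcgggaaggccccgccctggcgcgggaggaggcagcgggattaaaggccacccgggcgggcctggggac
Slc16a1, chr3:104638414-104638663: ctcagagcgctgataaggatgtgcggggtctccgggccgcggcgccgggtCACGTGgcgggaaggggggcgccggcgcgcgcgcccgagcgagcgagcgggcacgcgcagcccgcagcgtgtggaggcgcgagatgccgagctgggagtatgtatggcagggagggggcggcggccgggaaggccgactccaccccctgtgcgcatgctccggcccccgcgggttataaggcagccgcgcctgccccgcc

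The E-box starts 87 bases before the start in Slc9a3 and 200 bases before it in Slc16a1. RefSeq windows of 300 bases (250 before the start and 50 after) were matched for 30 of the 40 genes, 43 windows in all. On either strand, which is the same word because CACGTG is its own reverse complement, the E-box was in 5 of the 43 windows (11.6%), against 7.15% of 32851 mouse windows, in Slc9a3, Slc16a1, Slc5a1, Slc13a3 and Slc26a1. The D-box TTATGTAA, an element of the clock factors DBP, TEF and HLF, does not contain the E-box word. Searched on both strands, it was in 1 window (2.33%), that of Slc17a1, against 0.938%. A match says only that these letters are there. The other E-box genes Slc5a1, Slc13a3 and Slc26a1 differed by 0.14, 0.03 and 0.12 in HFD+AOS against HFD and did not pass. The part of the E-box in any difference was not tested. Windows of Slc13a1, Slc20a2, Slc23a1, Slc36a2, Slc38a3, Slc47a1, Slc5a12, Slc5a2, Slc6a18 and Slc7a13 were not used here.

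Slc16a1 (chromosome 3, 104638668 to 104658462, plus strand), a proton-coupled carrier of lactate and other monocarboxylates, had the most negative log2 difference of the 40 genes. It stood at 8.89, 8.0 and 5.57 in HFD+AOS and at 18.6, 14.5 and 16.3 in HFD. The signal was 6.79, 8.36 and 6.51 in HFD+AOS-FMT and 15.1, 14.0 and 8.06 in HFD+control-FMT. It was 18.3, 13.8 and 10.6 in control libraries and 13.1, 8.36 and 13.3 in AOS. Every library of HFD+AOS and HFD+AOS-FMT lay below every HFD library, while HFD+control-FMT replicate 3 and AOS replicate 2 reached down to their level. The mean in HFD+AOS was 0.454 times that in HFD (log2 difference -1.06, SE 0.238, adjusted p = 0.0546). Without control replicate 3 the adjusted p was 0.0182, and the gene also passed without control replicate 1 and without HFD+control-FMT replicate 3.

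Clock genes moved in the same libraries. Arntl, which pairs with CLOCK to drive the daily cycle, was at 2.41, 1.84 and 1.48 in HFD+AOS and 1.3, 1.86 and 1.96 in HFD+AOS-FMT, against 10.9, 8.64 and 10.0 in HFD. It was 8.42, 8.51 and 3.39 in HFD+control-FMT, 12.5, 10.1 and 2.71 in control and 6.75, 4.59 and 8.24 in AOS libraries. Of 14 listed clock genes, Hlf was called higher and Arntl lower in HFD+AOS against HFD, where 0.465% and 0.357% of all genes were. Without control replicate 3, 7 were called higher and 3 lower, against 4.24% and 2.48% of all genes. In HFD+AOS-FMT against HFD the counts were 1 higher and 0 lower, against 0.0997% and 0.0748% of all genes. Without that library they were 8 and 3, against 3.39% and 1.47%. The circadian activators Tef and Hlf stood above HFD in all libraries of both groups, with Tef at 94.4 to 101.5 in HFD+AOS, 93.6 to 101.6 in HFD+AOS-FMT and 43.1 to 57.2 in HFD. All HFD+control-FMT libraries also lay above HFD in both genes. Tef was at 61.9 to 76.2 there, and Hlf at 26.1 to 28.7 against 20.2 to 23.7 in HFD. The part of the clock genes, or of the hour of collection, in the transporter differences was not tested.

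**Figure D3:**
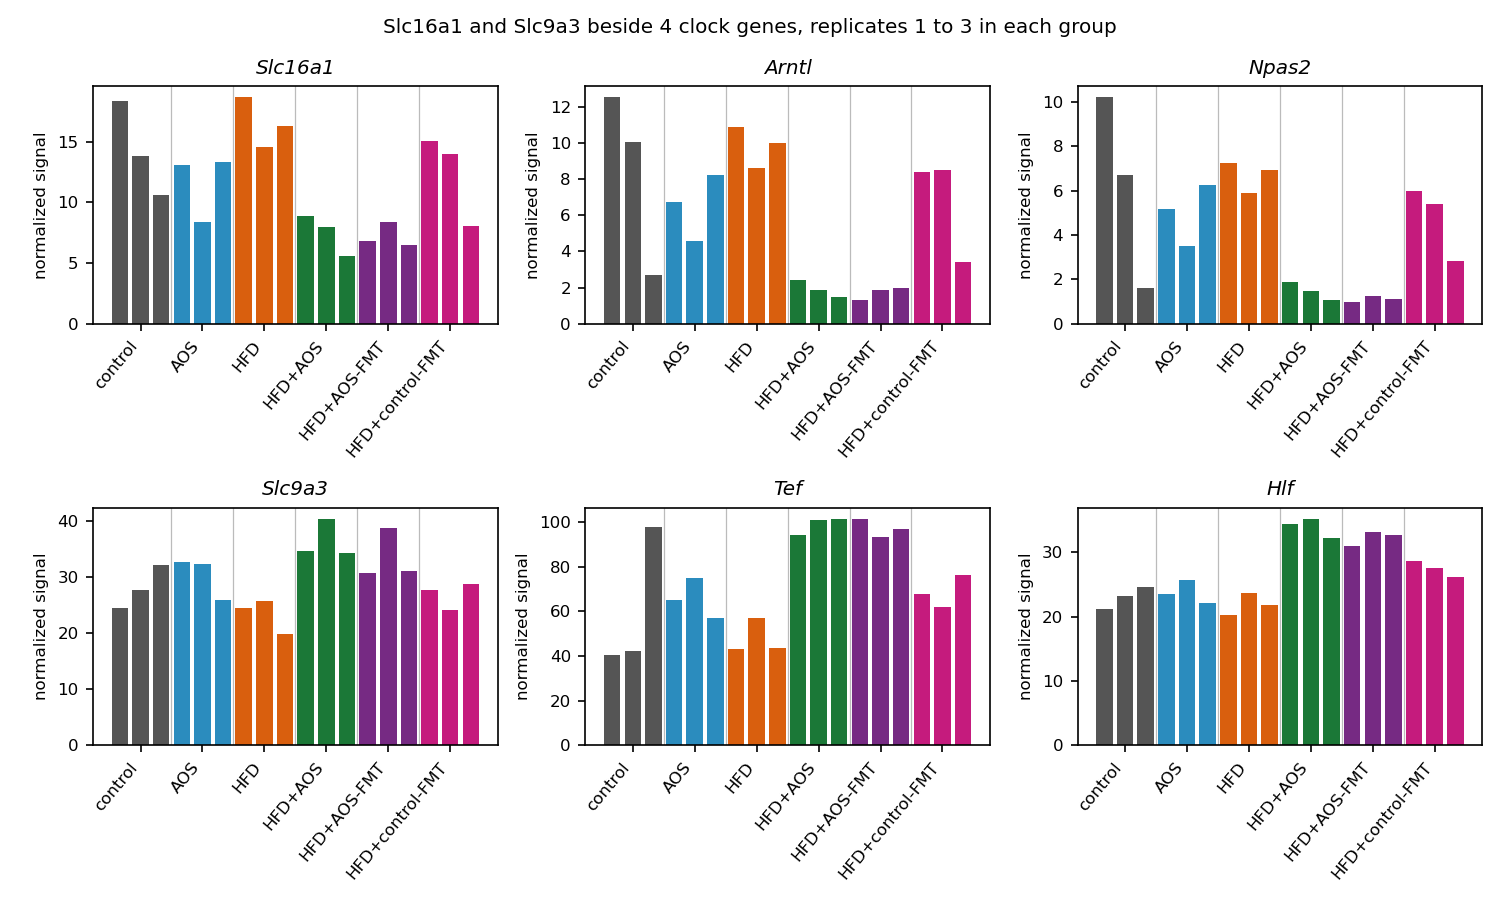
Bars give the normalized signal of Slc16a1, Slc9a3 and the clock genes Arntl, Npas2, Tef and Hlf in replicates 1 to 3 of each of the 6 groups, with axes from 0. Arntl is below 4 in all 6 libraries of HFD+AOS and HFD+AOS-FMT, in HFD+control-FMT replicate 3 and in control replicate 3, Slc16a1 is at 5.57 to 8.89 in the first 6 and at 8.06 and 10.6 in the other 2, and Tef is at 93.6 or more in those 6 libraries and in control replicate 3.

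By likeness of pattern over the 18 libraries (Pearson's r of log2 values over all genes tested), the 5 genes closest to Slc16a1 were Arntl (0.943), Dtx4 (0.930), Npas2 (0.929), Ndrg1 (0.915) and BC031181 (0.912). For Slc34a3 they were Dennd1a (0.851), Naaa (0.835), Tagap (0.811), Plxdc2 (0.797) and Zfp760 (0.789). For Slc16a9 they were Klf12 (0.853), Rnf123 (0.852), Dhtkd1 (0.846), Dgcr2 (0.839) and Rab11fip2 (0.833). These are descriptions over libraries that share their groups, and their genes were ranked from the same values.

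Among the glucose and hexose transporters, all 5 had positive differences in HFD+AOS against HFD and 0 passed with all libraries. Slc2a2, the basolateral exit for glucose and fructose, stood at 65.9, 51.6 and 46.7 in HFD+AOS against 36.1, 39.5 and 35.7 in HFD (log2 difference 0.54, SE 0.20, adjusted p = 0.215, and 0.00921 without control replicate 3). Slc2a5 stood at 73.3, 69.7 and 56.5 against 30.7, 48.0 and 39.9 (log2 difference 0.75, adjusted p = 0.313, and 0.0118 without that library). In both genes the groups did not overlap, and HFD+AOS replicate 1 was the highest of its group. Slc5a2, the low-affinity glucose carrier of the early tubule and the most abundant of the 5, was at 272, 224 and 228 in HFD+AOS against 218, 213 and 196 in HFD. Its other libraries lay at 204, 205 and 231 in control, 219, 228 and 244 in AOS, 204, 202 and 204 in HFD+AOS-FMT and 211, 182 and 181 in HFD+control-FMT. Its difference of 0.20 did not pass with or without control replicate 3. Slc5a1, the high-affinity carrier of the late tubule, and Slc5a10 differed by 0.14 and 0.06.

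Of the 7 monocarboxylate and urate carriers 6 had positive differences. Without control replicate 3 there were 2 higher and 1 lower past the threshold, against 4.24% and 2.48% of all genes. Slc16a9 (chromosome 10, 70245100 to 70285968, plus strand), a carnitine carrier, was at 56.5, 62.1 and 56.6 in HFD+AOS against 45.8, 52.4 and 39.8 in HFD, with no overlap. It stood at 52.5, 60.0 and 61.6 in HFD+AOS-FMT, 49.9, 46.8 and 45.7 in HFD+control-FMT, 45.4, 50.5 and 46.5 in control and 51.5, 50.1 and 49.8 in AOS libraries. The difference of HFD+AOS from HFD was 0.35 (SE 0.0873, adjusted p = 0.0789, and 0.0295 without control replicate 3). Slc2a9 stood at 4.40 to 4.90 in HFD+AOS against 2.74 to 3.38 in HFD and passed only without that library (adjusted p = 0.0217). The sodium-coupled lactate carriers Slc5a12 and Slc5a8 had differences of 0.60 and 0.19 without passing. The urate carriers Slc17a1 and Slc17a3, neighbours on chromosome 13 (23867750 to 23895730 and 23839434 to 23860716), differed by 0.02 and 0.07. Slc17a1, the most abundant of this role, was at 518, 511 and 454 in HFD+AOS and 519, 474 and 467 in HFD. It lay at 474, 476 and 288 in control, 438, 424 and 452 in AOS, 509, 480 and 518 in HFD+AOS-FMT and 488, 486 and 501 in HFD+control-FMT, so that the low value of control replicate 3 was the widest departure.

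Of the phosphate carriers, Slc34a3 (chromosome 2, 25228898 to 25234364, minus strand), the second sodium phosphate cotransporter of the brush border, was lowest in HFD and HFD+control-FMT. It was at 16.1, 16.2 and 15.8 in HFD and 16.1, 15.3 and 17.1 in HFD+control-FMT, against 26.6, 19.3 and 20.3 in HFD+AOS and 20.9, 19.3 and 19.4 in HFD+AOS-FMT. Control libraries stood at 18.2, 22.1 and 24.1 and AOS libraries at 22.3, 19.5 and 21.1, so every HFD and HFD+control-FMT library lay below every library of the other 4 groups. HFD+AOS differed from HFD by 0.43 (SE 0.109, adjusted p = 0.0839, and 0.0223 without control replicate 3). Slc34a1 was at 3261, 2935 and 2997 in HFD+AOS against 2669, 2919 and 2668 in HFD, a difference of 0.15 that did not pass although the groups did not overlap. Its other values were 2530, 2830 and 1762 in control, 2719, 2633 and 2908 in AOS, 2999.8, 2567 and 2703 in HFD+AOS-FMT and 2703, 2553 and 2189 in HFD+control-FMT. Slc20a2, a phosphate carrier of many tissues, differed by 0.17.

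Beside Slc9a3, the proton and bicarbonate genes hold the scaffolds Slc9a3r1 and Pdzk1, which anchor Slc9a3 and Slc34a1 in the brush border, and Slc4a4, the basolateral sodium bicarbonate exit. Slc9a3r1 was at 164, 171 and 184 in HFD+AOS against 156, 144 and 143 in HFD. Slc4a4 was at 148.7, 135.8 and 114.8 against 119.1, 107.6 and 105.0, with overlap. Pdzk1, the most abundant of this role, was at 594, 631 and 647 against 633, 610 and 616, with overlap. Its other values were 600, 635 and 502 in control, 578, 605 and 673 in AOS, 630, 601 and 637 in HFD+AOS-FMT and 632, 595 and 651 in HFD+control-FMT. Differences were 0.23 for Slc9a3r1, 0.26 for Slc4a4 and 0.01 for Pdzk1, and 0 of these 3 genes passed with or without control replicate 3.

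The sulfate, dicarboxylate and anion carriers all had positive differences. Without control replicate 3, 1 of the 5 passed, against 4.24% of all genes called higher. Slc13a2, which takes up citrate, was at 44.7, 45.8 and 40.1 in HFD+AOS against 26.1, 34.1 and 26.8 in HFD (log2 difference 0.58, SE 0.201, adjusted p = 0.178, and 0.00921 without that library). The groups did not overlap. Slc13a3, its basolateral counterpart and the most abundant of this role, was at 443, 411 and 380 against 380, 422 and 405. The sulfate carriers Slc13a1 and Slc26a1 differed by 0.34 and 0.12, and Slc26a6 by 0.23. For Slc13a1, HFD+AOS replicate 1 was at 257 against 136 and 140 in the other 2 libraries of its group.

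Among neutral and imino acid carriers 2 of 7 passed without control replicate 3, both higher, and 0 with all libraries. Of all genes 4.24% were called higher without that library. Slc6a19 (chromosome 13, 73679745 to 73704865, minus strand), the main neutral amino acid carrier of the brush border, had the largest positive difference of the 40 genes. It stood at 151.7, 120.3 and 112.9 in HFD+AOS against 63.9, 64.3 and 55.9 in HFD, a ratio of means of 2.09. It was at 106.7, 83.7 and 80.8 in HFD+AOS-FMT, 69.2, 48.1 and 67.7 in HFD+control-FMT, 81.6, 83.3 and 64.5 in AOS and 60.8, 65.6 and 163.4 in control libraries. Outside control replicate 3 no library reached the HFD+AOS values. The log2 difference from HFD was 1.04 (SE 0.280, adjusted p = 0.0921, and 0.00222 without control replicate 3). Its neighbour Slc6a18 (chromosome 13, 73661752 to 73678023, minus strand), a glycine and neutral amino acid carrier, was at 80.5, 73.4 and 98.2 against 83.2, 100.8 and 104.5, a difference of -0.20 that did not pass.

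Tmem27, the partner both need at the membrane, was at 1772, 1641 and 1622 against 1734, 1577 and 1640 (log2 difference 0.02). Its other libraries lay at 1789, 1746 and 1318 in control, 1595, 1731 and 1518 in AOS, 1619, 1536 and 1386 in HFD+AOS-FMT and 1536, 1406 and 1628 in HFD+control-FMT. Slc6a20b is grouped here with the imino acid carriers, but its own substrate was not examined. It has a close copy in the genome whose reads may not be told apart. Slc6a20b was at 117.2, 109.4 and 114.4 against 99.3, 99.8 and 95.8 (log2 difference 0.21, adjusted p = 0.433, and 0.0261 without control replicate 3). Slc38a3, Slc6a13 and Slc36a2 had differences of -0.42, -0.38 and -0.51 and did not pass. Slc36a2 ran from 0.33 to 3.35 over the 18 libraries, with wide overlap between groups.

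Of the 6 carriers of paired and acidic amino acid transport, 0 passed with all libraries. Without control replicate 3 it was 1, against 4.24% of all genes called higher. Slc7a9, the light chain of the cystine carrier, was at 82.9, 68.6 and 74.1 in HFD+AOS against 59.2, 54.3 and 59.6 in HFD (log2 difference 0.37, adjusted p = 0.268, and 0.0117 without control replicate 3). Its heavy chain Slc3a1 was at 288, 284 and 271 against 245, 251 and 257, a difference of 0.16 that did not pass. Slc7a13, the other light chain of Slc3a1 and the most abundant of this role, was at 464, 468 and 535 against 428, 410 and 424, without overlap. Its other values were 496, 518 and 99.4 in control, 501, 438 and 450 in AOS, 511, 540 and 505 in HFD+AOS-FMT and 461, 419 and 494 in HFD+control-FMT. The basolateral pair Slc7a7 and Slc3a2 had differences of 0.28 and -0.20, and the glutamate carrier Slc1a1 of -0.09.

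The last role holds Slc47a1, Slc23a1 and Slc15a2, and 0 of the 3 passed in HFD+AOS against HFD in either fit. Slc47a1, its most abundant member, was at 391, 389 and 382 in HFD+AOS against 377, 364 and 333 in HFD (log2 difference 0.11). It was at 374, 344 and 205 in control, 366, 370 and 366 in AOS, 361, 353 and 353 in HFD+AOS-FMT and 362, 324 and 345 in HFD+control-FMT. The vitamin C carrier Slc23a1 differed by 0.26. The peptide carrier Slc15a2, at 16.0, 29.7 and 31.7 against 25.3, 24.9 and 31.0, differed by -0.12.

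By place along the tubule, the 6 early-segment genes (Slc5a2, Slc2a2, Slc34a1, Slc6a19, Slc4a4 and Slc5a12) had a median difference of 0.40 in HFD+AOS against HFD. All 6 were positive, and 5 lay wholly above HFD, against 16.2% of all genes. HFD+AOS replicate 1 was the highest of its group in all 6. The early-segment genes summed to 4084, 3594 and 3639 in HFD+AOS replicates 1 to 3 and to 3162 to 3438 in HFD. Kap took 17.2% of the signal in replicate 1, against 21.0% and 21.5% in replicates 2 and 3. Its injury genes summed to 563 against 285 and 312, and its loop of Henle genes to 765 against 978 and 988. Their part in these differences was not tested. The 6 late-segment genes (Slc5a1, Slc1a1, Slc6a18, Slc15a2, Slc7a13 and Slc5a8) had a median of 0.02 with 3 positive. Of these, Slc7a13 and Slc5a8 also lay wholly above HFD, where the share over all genes was 16.2%. In both lists 0 genes passed with all libraries, and without control replicate 3 it was 2 early genes and 0 late genes, against 4.24% of all genes called higher. The difference between the lists was not tested.

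Of 28 listed partners and regulators, 2 passed in HFD+AOS against HFD with all libraries, both higher, against 0.465% of all genes. Among them was Ppara, a fatty acid receptor. It stood at 20.8, 18.3 and 14.7 against 11.5, 10.2 and 11.2 (log2 difference 0.65, adjusted p = 0.0225). Without control replicate 3 there were 6 higher and 1 lower, against 4.24% and 2.48% of all genes. The 1 that was lower was Fxyd2, a sodium pump subunit (log2 difference -0.22). Of the cell type marker sums given in this paragraph, those of the podocyte and red cell genes did not overlap between these groups, and the others did. The proximal tubule markers outside the set, without Kap, summed to 10699 to 11657 in HFD+AOS and 9026 to 10767 in HFD, and 0 of the 11 tested passed. The 4 podocyte genes summed to 23.4 to 30.5 in HFD+AOS and 13.6 to 22.04 in HFD, and the 5 red cell genes to 1668 to 3384 against 4767 to 5338. The 6 collecting duct genes were all positive, with sums of 154 to 173 against 121.5 to 166. The fat genes summed to 83.5 to 289 against 197 to 557, the endothelial genes to 43.8 to 57.2 against 54.2 to 65.05, and the distal tubule genes to 565 to 653 against 514 to 568. The 6 injury genes summed to 285 to 563 against 278 to 361. Of all these marker lists 0 genes passed with all libraries, and their part in the transporter differences was not tested.

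**Figure D4:**
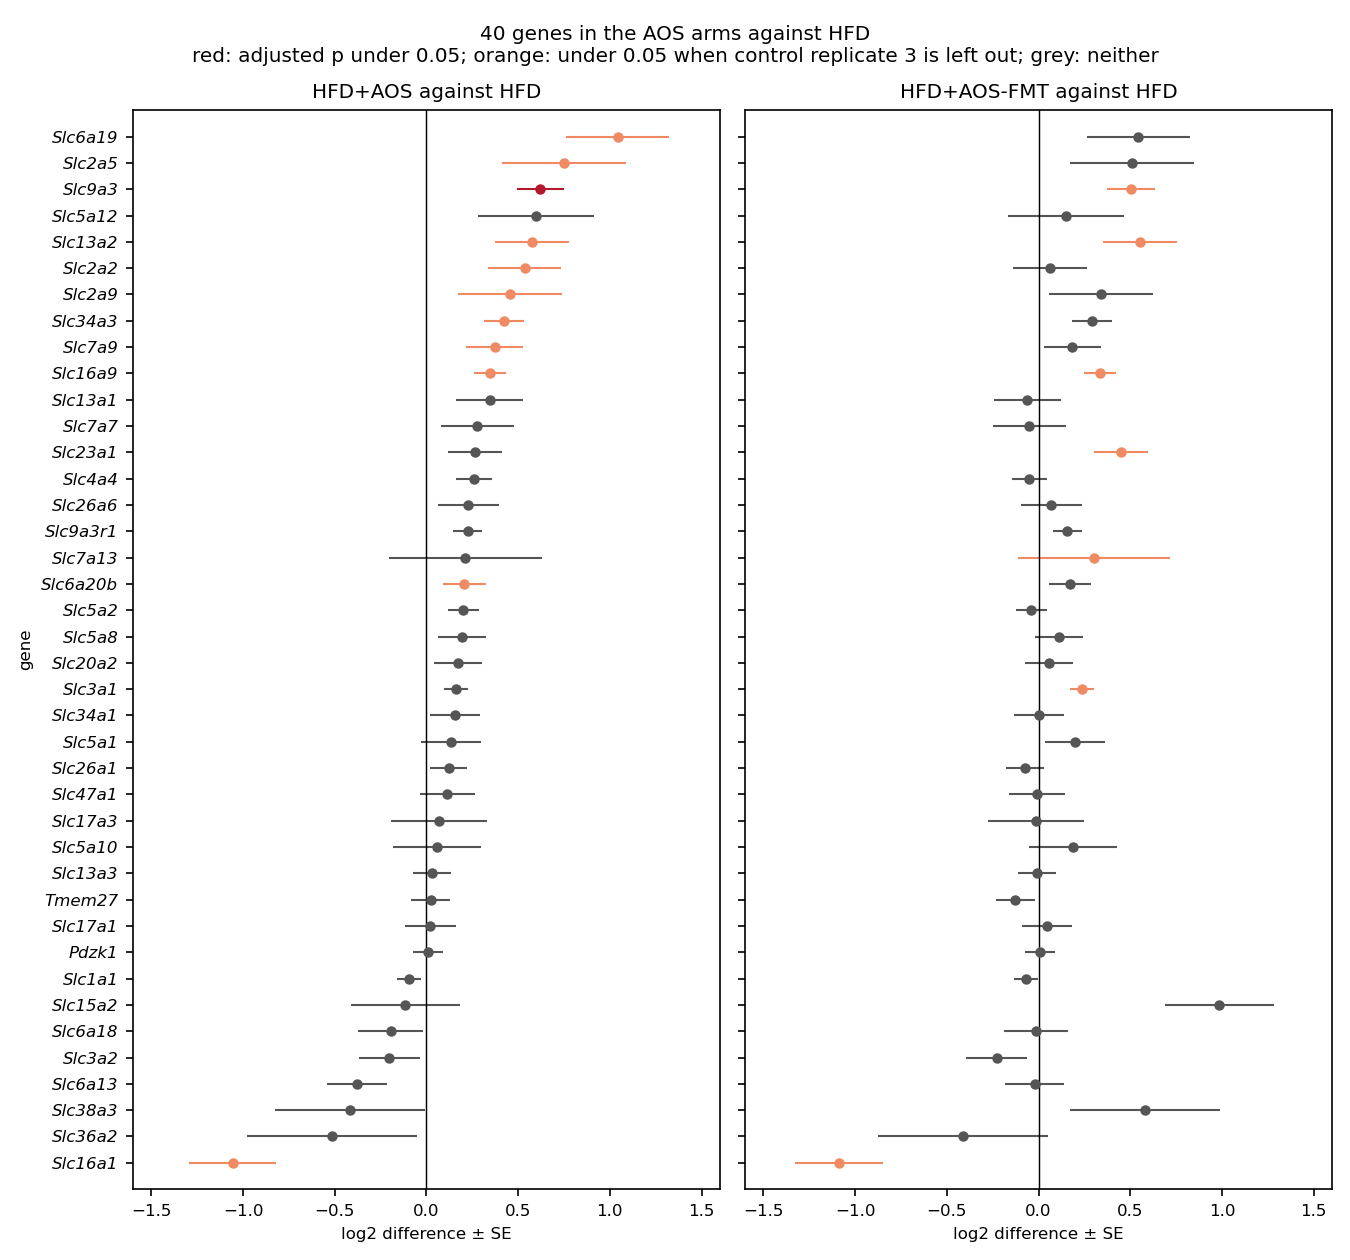
Points give the log2 difference and bars its SE with all 18 libraries for the 40 genes in HFD+AOS against HFD (left) and HFD+AOS-FMT against HFD (right), in the order of the left panel; both panels share the HFD libraries. Red marks the gene with an adjusted p under 0.05 (Slc9a3, left), orange those that pass when control replicate 3 is left out (10 more on the left, 7 on the right), and Slc16a1 is the lowest point in both panels.

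The comparison of HFD+AOS-FMT with HFD asks what the transplant labelled AOS changed on the diet. With all libraries 0 of the 40 genes passed, against 0.175% of all genes tested (0.0997% higher and 0.0748% lower), and at an unadjusted p under 0.05 there were 8 (7 higher and 1 lower), against 13.3% of all genes (8.63% and 4.63%). The median difference was 0.07, against 0.05 over all genes, and 25 genes were positive, or 30 after rescaling without Kap. In 15 genes all HFD+AOS-FMT libraries lay above HFD and in 3 below, against 17.3% and 7.86% of all genes. Without control replicate 3, 7 of the 40 genes passed (4.86% of all genes, with 3.39% higher and 1.47% lower): Slc9a3, Slc13a2, Slc3a1, Slc7a13, Slc16a9 and Slc23a1 higher, and Slc16a1 lower.

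This comparison and that of HFD+AOS with HFD share the 3 HFD libraries, so their values are given side by side only. Slc16a1 differed from HFD by -1.09 in HFD+AOS-FMT (SE 0.238, adjusted p = 0.0728) and by -1.06 in HFD+AOS. Slc9a3 differed by 0.50 (adjusted p = 0.119) and 0.62, and Slc16a9 by 0.33 (adjusted p = 0.119) and 0.35. Slc6a19 differed by 0.54 and 1.04, Slc2a2 by 0.06 and 0.54, and Slc4a4 by -0.05 (0.02 with the batch term for germ cell transcripts) and 0.26. For Slc23a1 the differences were 0.45 and 0.26, and for Slc15a2 0.99 and -0.12. HFD+AOS-FMT and HFD+AOS were not tested against each other. The peptide carrier Slc15a2 stood at 74.8, 49.0 and 43.6 in HFD+AOS-FMT, above all HFD and HFD+AOS libraries, with control libraries at 50.6, 22.4 and 50.6, AOS libraries at 40.9, 33.4 and 29.0 and HFD+control-FMT libraries at 32.0, 29.2 and 32.2. Its adjusted p was 0.170, and 0.0815 without control replicate 3.

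Slc3a1, the heavy chain shared by Slc7a9 and Slc7a13, was at 292, 295 and 302 in HFD+AOS-FMT against 245, 251 and 257 in HFD, without overlap (log2 difference 0.24, adjusted p = 0.129, and 0.0307 without control replicate 3). The early-segment genes had a median difference of 0.03, and the late-segment genes of 0.16. Of the 28 partners and regulators 0 passed. Without control replicate 3 there were 5 higher and 2 lower, against 3.39% and 1.47% of all genes. Those with the smallest p were Ppara (0.60, adjusted p = 0.0528), Fgfr1, a receptor for the phosphate hormone FGF23 (0.35, adjusted p = 0.0730), and Slc7a8, a basolateral amino acid exchanger (-0.53, adjusted p = 0.134). The clock genes that moved in the same libraries are given above. The proximal tubule markers outside the set, without Kap, summed to 10097 to 13103 in HFD+AOS-FMT against 9026 to 10767 in HFD, with 0 of 11 past the threshold. Loop of Henle genes summed to 1142 to 1736 against 872 to 1201, collecting duct genes to 159 to 260 against 121.5 to 166, and podocyte genes to 19.3 to 39 against 13.6 to 22.04. Distal tubule genes summed to 566 to 653 against 514 to 568, and red cell genes to 3490 to 4803 against 4767 to 5338. Each of these ranges overlapped between the groups, 0 genes of these lists passed with all libraries, and their part in the transporter differences was not tested.

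**Figure D5:**
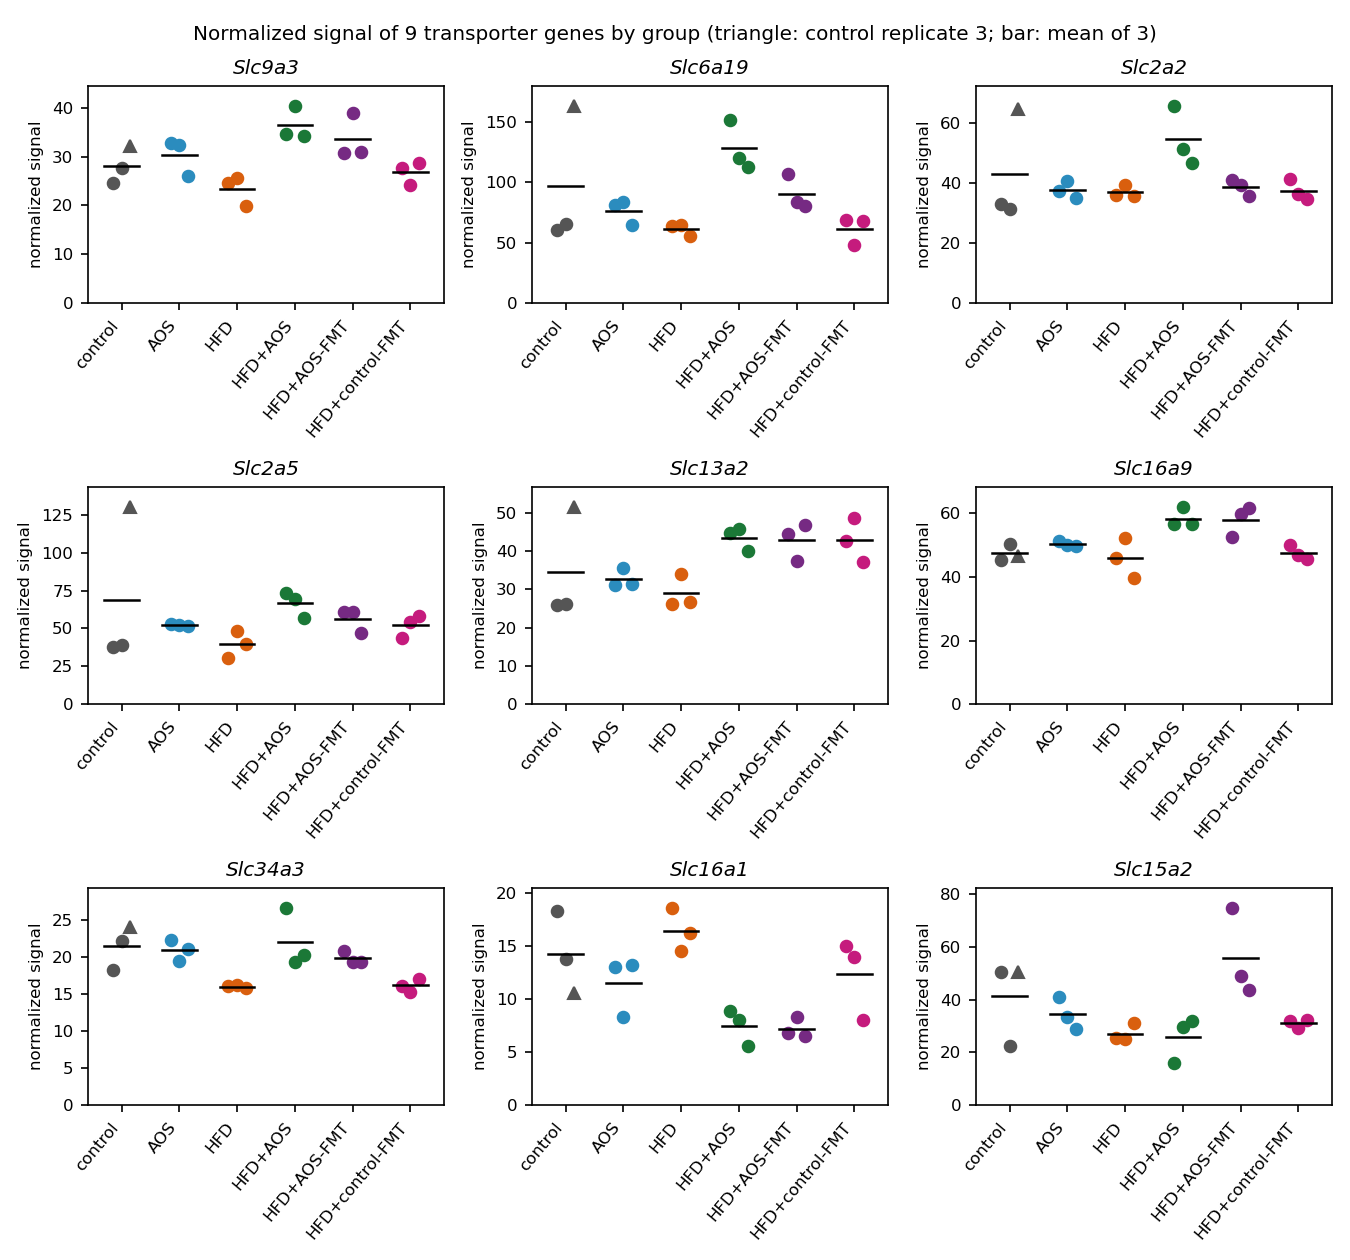
Normalized signal of 9 of the 40 genes in the 6 groups; points are libraries, bars are means of 3, the triangle is control replicate 3, and axes start at 0. Slc6a19 and Slc2a2 are highest in HFD+AOS outside control replicate 3, and Slc34a3 is low in HFD and HFD+control-FMT. Slc16a1 is low in HFD+AOS and HFD+AOS-FMT, and Slc15a2 has its highest mean in HFD+AOS-FMT.

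In HFD+control-FMT against HFD the groups did not overlap in 7 of 40 genes, against 15.4% of all genes. No gene passed (0 of 40, against 0% of all genes), with 2 at an unadjusted p under 0.05, against 4.5% of all genes, and a median difference of 0.02. Slc13a2 was at 42.5, 48.7 and 37.1 in HFD+control-FMT against 26.1, 34.1 and 26.8 in HFD, with 31.1, 35.5 and 31.3 in AOS libraries, 26.0, 26.2 and 51.6 in control libraries and 44.5, 37.5 and 46.8 in HFD+AOS-FMT. All 3 transplant or AOS groups on the diet thus lay above HFD for this gene (control transplant 0.55, SE 0.201, limma adjusted p = 1.00, and 0.205 without control replicate 3). Slc9a3r1 was at 160, 169 and 175 against 156, 144 and 143, with 169, 157 and 168 in HFD+AOS-FMT, 150, 186 and 153 in control and 158, 163 and 174 in AOS libraries. Slc23a1 was at 82.4, 80.9 and 87.4 against 59.8, 75.7 and 70.3, with 88.5, 102.1 and 90.5 in HFD+AOS-FMT, 72.7, 89.0 and 85.9 in HFD+AOS, 63.5, 78.4 and 108.3 in control and 89.1, 79.9 and 75.2 in AOS libraries.

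Both transplant groups were set against each other, HFD+AOS-FMT minus HFD+control-FMT. Here 0 of 40 genes passed (0% of all genes), nor did any without control replicate 3 (0.116%), and 5 had an unadjusted p under 0.05, against 7.02% of all genes. In 10 genes HFD+AOS-FMT lay wholly above HFD+control-FMT and in 1 wholly below, against 12.4% and 5.67%. The smallest p belonged to Slc16a9 (0.28, SE 0.0873, adjusted p = 0.535), Slc16a1 (-0.66, SE 0.238, adjusted p = 0.593) and Slc15a2 (0.78, SE 0.297, adjusted p = 0.638). Slc16a9 and Slc15a2 did not overlap, and Slc16a1 did because of HFD+control-FMT replicate 3, which also had the lowest Arntl of its group. Arntl was ranked closest to Slc16a1 over these same libraries, and its part in this overlap was not tested.

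In HFD against control, which asks what the diet alone changed, 0 of 40 genes passed (0% of all genes), and 6 had an unadjusted p under 0.05, against 17.4% of all genes. The median difference was -0.12, close to the -0.10 of all genes, and both were -0.02 without control replicate 3. Quantile normalization moved the median of all genes to 0.01 here, from -0.09 to 0.01 in AOS against control and from 0.11 to -0.004 in the interaction, so levels against control are relative to that shift. Slc34a3 was lower in every HFD library than in any control library (log2 difference -0.39, SE 0.109, adjusted p = 0.228), and so was Slc6a18, at 83.2, 100.8 and 104.5 against 151.8, 132.8 and 120.2. The difference of Slc6a18 was -0.48 (SE 0.176, adjusted p = 0.238). It stood at 134.8, 91.3 and 97.5 in AOS, 117.9, 100.1 and 71.9 in HFD+AOS-FMT and 96.9, 98.2 and 88.2 in HFD+control-FMT. Slc13a3 went the other way, at 380, 422 and 405 in HFD against 371, 356 and 290 in control. Its values were 386, 382 and 353 in AOS, 406, 356 and 442 in HFD+AOS-FMT and 459, 398 and 392 in HFD+control-FMT. Its difference of 0.25 (adjusted p = 0.255) was 0.15 without control replicate 3.

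In AOS against control 0 of 40 genes passed, against 0.0332% of all genes, and 4 had an unadjusted p under 0.05 (12.7% of all genes). Slc6a20b was at 105.4, 101.8 and 105.8 in AOS against 92.3, 98.7 and 63.0 in control libraries, with 112.9, 110.5 and 108.5 in HFD+AOS-FMT and 99.5, 100.6 and 110.8 in HFD+control-FMT. Its difference of 0.32 (SE 0.115, adjusted p = 0.355) became 0.13 without control replicate 3. Slc4a4 was at 101.4, 89.97 and 103.7 in AOS against 120.0, 107.3 and 126.3 in control (-0.26, SE 0.0962, adjusted p = 0.360), with 102.6, 114.9 and 102.5 in HFD+AOS-FMT and 108.3, 96.8 and 97.6 in HFD+control-FMT. Slc5a1 was at 17.3, 15.5 and 15.02 against 18.5, 17.2 and 28.7, and its difference went from -0.38 to -0.16 without control replicate 3. It was at 13.4, 17.9 and 16.8 in HFD, 20.3, 16.7 and 16.0 in HFD+AOS, 17.9, 21.1 and 16.4 in HFD+AOS-FMT and 14.8, 17.9 and 17.03 in HFD+control-FMT. All control and no AOS libraries hold the germ cell transcripts that were summed, so within this pair of groups that split and the treatment cannot be told apart.

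HFD+AOS-FMT against control gave 0 of 40 genes, against 2.32% of all genes, and 8 at an unadjusted p under 0.05 (19% of all genes). Slc16a1 differed by -0.87 (SE 0.238, adjusted p = 0.0684), Slc6a20b by 0.41 (SE 0.115, adjusted p = 0.0744) and Slc16a9 by 0.28 (SE 0.0873, adjusted p = 0.0999), each without overlap. Without control replicate 3, 4 genes passed (4.35% of all genes): Slc13a2, Slc6a20b and Slc7a9 higher and Slc16a1 lower. The difference of Slc7a9 went from 0.11 to 0.37 and that of Slc13a2 from 0.37 to 0.69 without that library, while that of Slc6a20b went from 0.41 to 0.21 (adjusted p = 0.0489). All control and no HFD+AOS-FMT libraries hold the summed germ cell transcripts. Within this pair of groups too, that split and the treatments cannot be told apart.

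Whether the AOS difference depends on the diet was tested as an interaction, and 0 of 40 genes passed (0% of all genes), with 8 at an unadjusted p under 0.05, against 12.4% of all genes. Slc4a4 differed from control by -0.26 with AOS alone and from HFD by 0.26 with AOS on the diet, and its difference of differences was 0.52 (SE 0.136, adjusted p = 0.290). For Slc6a19 it was 1.23 (SE 0.396, adjusted p = 0.366), and 0.78 without control replicate 3. For Slc34a3 it was 0.45 (SE 0.154, adjusted p = 0.368). In the F test over the 6 groups 0 of 40 genes passed, against 1.02% of all genes, and 12 had an unadjusted p under 0.05 (17.7% of all genes). Without control replicate 3, 11 passed (6.33% of all genes), namely Slc5a10, Slc2a2, Slc2a5, Slc2a9, Slc34a3, Slc9a3, Slc13a2, Slc6a19, Slc6a20b, Slc7a9 and Slc16a1.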

How the data were processed

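Kidney RNA of 18 libraries was measured. Bowtie 0.12.2 and mm10 are named per the submitters' processing notes. How reads were counted and normalized is not stated there. The deposited values are a normalized signal for each gene symbol, which the authors gave without a unit. Of 19545 entries, 26 date-like symbols and 1 repeat were dropped. Gene coordinates came from GENCODE M21, promoters from RefSeq. Relative depth came from 144 genes with low values (67.3% within 0.1 of a whole multiple of their step, 26.4% with random factors), and no counting interval can be given. A gene's smallest value is a whole multiple of its step by definition, which raises the first share.

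Genes with at least 1 in 3 or more libraries (12031) were fitted on log2(value + 1), on which low genes' changes are understated. R 4.3.3 with limma 3.58.1 took 6 group means (12 residual degrees of freedom), trended and robust variances, and two-sided tests. P-values were adjusted by Benjamini-Hochberg over all genes for each of 8 contrasts and the F test (threshold 0.05). The procedure was tested on simulated data. Figures used matplotlib 3.10.9.

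The 40 genes and all lists were chosen with earlier results of these data known. The values of 1 listed gene are not reported here. Values in every library were given for genes that passed, the 3 with the smallest p in each contrast and the most abundant of each role. Pattern genes have the highest Pearson r with the 3 genes of smallest F test p. Alternatives were other pseudocounts, no filter, quantile normalization, rescaling without Kap, plain variances, array weights, single comparisons, a replicate block, each library left out and, chosen after seeing the data, a batch term for germ cell transcripts.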

Additional observations from a re-analysis of the deposited data

How the results depend on the processing

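For HFD+AOS against HFD, 1 gene passed as reported, and the count was 0 without the filter on low values, 3 after rescaling without Kap, 0 with neither trend nor robust estimation, 11 with array weights, 5 with the groups of the comparison alone and 0 with a batch term for germ cell transcripts. Leaving out 1 library each gave 0 to 11, with the highest count without control replicate 3 and 3 as the highest otherwise. For HFD+AOS-FMT against HFD the reported 0 became 6 with array weights and 2 with the groups alone, and 0 to 7 with a library left out. For HFD+AOS-FMT against control it became 3 with array weights and 0 to 4 with a library left out. For the F test it became 1 after rescaling without Kap, 9 with array weights and 0 to 11 with a library left out. The other 5 comparisons stayed at 0 to 0 under each left-out library and at 0 under the other settings. Same-numbered replicates share only a number: the correlations of their deviations from the group means ran from -0.159 to 0.26, and in no comparison were all above 0.1. With the replicate block the count in HFD+AOS against HFD was 1, namely Slc16a1 lower in place of Slc9a3, and 0 in the other comparisons. Slc9a3 passed in 6 of 10 other settings (log2 difference 0.55 to 0.84, adjusted p from 0.00417 to 0.133) and in 7 of 18 fits with a library left out. Where a left-out library leaves a group with 2, that group is assumed to vary like the others.

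The 24 differences of the genes with the smallest p in each contrast kept their direction in every setting tried. They were picked by p from these same values, so their kept direction says little about the other differences. Over all 320 differences of the 40 genes, 57 changed sign without control replicate 3, each in a comparison that uses the controls, and 29 with the batch term. In HFD+AOS against HFD the counts were 0 and 0. Of the values of the 24 with a library left out, 410 stayed on their side of the threshold, 11 newly passed and 11 no longer passed. The unknown number of reads limits what can be said of genes with low values, such as Slc36a2.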
